A study of Mus musculus with 6 samples.

Results

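Ionotropic glutamate receptor subunit genes were followed across the cell classes of the mouse retina, 9 of the 32285 features counted. They were taken by symbol: the AMPA receptor subunits Gria1, Gria2, Gria3 and Gria4, the kainate receptor subunits Grik1, Grik2, Grik3 and Grik4, and the delta receptor subunit Grid1. Single-nucleus RNA sequencing had been done on retinas of wild-type C57BL6/J mice, with 3 libraries of 18-month-old animals (18mo) and 3 libraries of 3-month-old animals (3mo). No treatment, transgene or sex is given in the labels, and the study's design names the comparison of the ages. Droplet barcoding of nuclei (10x 3' chemistry, on nuclear RNA) gave counts of unique molecular identifiers (UMIs), each standing for 1 captured RNA molecule.

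Photoreceptors and bipolar cells of the retina release glutamate. OFF cone bipolar cells and horizontal cells receive it from photoreceptors through AMPA and kainate receptors, whereas ON bipolar cells, rod bipolar cells among them, use the metabotropic receptor mGluR6 on their dendrites. Amacrine and ganglion cells receive glutamate from bipolar cells, mainly through AMPA and NMDA receptors. AMPA and kainate subunits assemble as tetramers, and delta subunits are related proteins that bind extracellular cerebellins at synapses.

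The subunits can be set side by side at the codon that lines the channel pore and decides how well calcium passes. RNA editing converts a glutamine codon (Q) into an arginine codon (R) there in Gria2, Grik1 and Grik2 transcripts, and the genome carries the glutamine codon in all 6 genes printed here. The coding strand around that codon (GENCODE M21 transcripts, GRCm38) is given 5′ to 3′, with the codon in capitals.
Gria1: ggggccttcatgCAGcaaggatgtgac
Gria2: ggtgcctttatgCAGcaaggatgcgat
Gria3: ggtgcttttatgCAGcaaggatgtgat
Gria4: ggtgcctttatgCAAcaaggatgtgac
Grik1: ggagctctcatgCAGcaaggatcggag
Grik2: ggagctctcatgCAGcaaggttctgag
The 4 AMPA windows lie within a single exon each, at chr11:57243082-57243108 on the plus strand (Gria1, exon 11 of 16), chr3:80706899-80706925 on the minus strand (Gria2, exon 11 of 16), chrX:41610253-41610279 on the plus strand (Gria3, exon 11 of 16) and chr9:4464125-4464151 on the minus strand (Gria4, exon 12 of 17). Those of Grik1 and Grik2 cross from exon 13 into the next exon. Counts per gene do not show whether a molecule was edited.

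The genes are long, and nuclear RNA holds unspliced transcripts, so levels were compared between genes mainly per 100 kb of gene span. Whether counts rise in proportion to span was not tested. Gria2 is the shortest at 121.4 kb and Grid1 the longest at 763.3 kb. Grik1 (ENSMUSG00000022935) spans chr16:87895900-88290265 on the minus strand, 394.4 kb in which no other annotated gene overlaps. Gria1 also has no overlapping gene. Grid1 is overlapped by 2 annotated genes on the other strand and 2 on its own strand, and the other 6 genes by 1 to 6 genes on their own strand, most of them unnamed models or small RNAs.

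The libraries held 15905689 to 29340705 UMIs each, and 55230 of 62893 barcodes were kept. Nuclei were put in classes by clustering and by marker genes, and a class is called "rod-like" and so on because its name was rebuilt from those markers. The 9 members were left out of the clustering. Of the kept nuclei, 17975 fell in clusters without a class, 43.9% of nuclei at 18mo and 10.3% at 3mo, and the limits for naming were set after the clusters had been seen. Library 18mo replicate 3 stood apart, with 76.2% of its nuclei without a class against 6.0% to 24.6% in the other 5, and it held only 2 ON and 8 OFF cone bipolar-like nuclei. Levels in those classes therefore rest on 5 libraries. Replicate 1 of both ages was counted with Cell Ranger 7.1.0 and the other 4 libraries with 7.2.0. Barcode sequences found in more than 1 library numbered 467. The 11 neuronal and Müller classes held 34528 nuclei, from 368 ON cone bipolar-like to 12975 rod-like. Rod markers were found in every class, with a summed level of 2571.8 to 6688.7 CPM even in ganglion-like nuclei, against 24705.3 to 61644.6 CPM in rod-like nuclei.

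Levels are given as CPM, the UMIs of a gene scaled to a fixed total of UMIs per class and library. Microglia-, endothelial- and pericyte-like nuclei, summed per library, were used as a guide to the level that free RNA and other background can give. That level was substantial for the broadly detected subunits, at 541.0 ± 219.5 CPM for Gria4 and 460.8 ± 135.1 CPM for Gria2, and small for Grik3 at 9.05 ± 7.97 CPM and Grik4 at 9.87 ± 7.87 CPM (SD, n = 6 libraries). A class is said to stand above background below only if it did so in every library that had it. Such background was measured on 33 to 319 nuclei per library. It is not a level common to all classes, since rod bipolar-, cone- and rod-like nuclei held less Gria4, at 60.4, 100.3 and 109.4 CPM. A class that did not stand above background is therefore not shown to lack the gene.

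**Figure D1:**
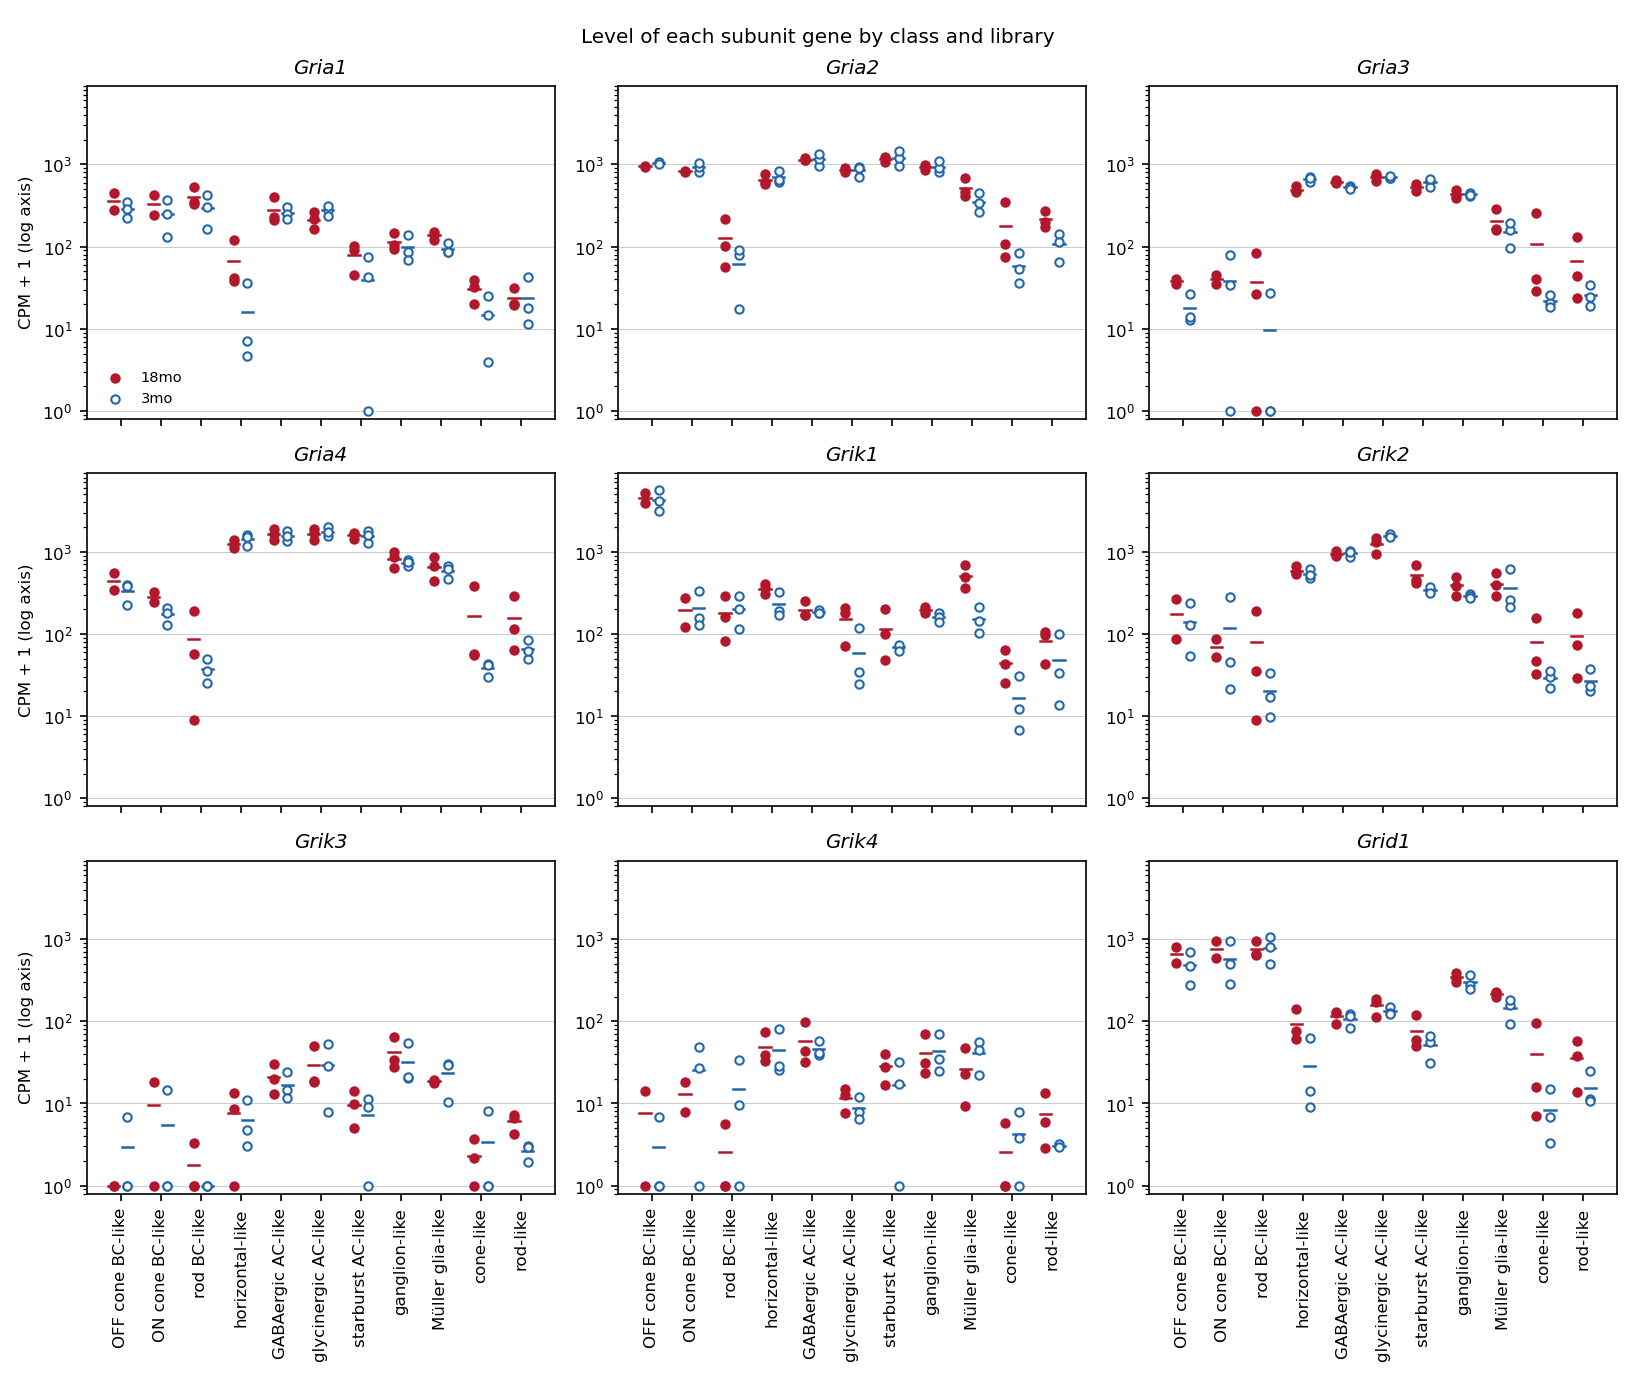
Level of the 9 subunit genes (CPM + 1, log axis) in the 11 classes (BC, bipolar; AC, amacrine), each point 1 library, 18mo filled at the left and 3mo open at the right, with lines at the means of each age. Grik1 stood at 3126 to 5582 CPM in OFF cone bipolar-like nuclei and Gria2 at 16.4 to 218.3 CPM in rod bipolar-like nuclei.

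Among the AMPA subunits, Gria2, the subunit whose edited form makes receptors nearly impermeable to calcium, stood above background in the ON and OFF cone bipolar-, horizontal-, ganglion- and 3 amacrine-like classes. In rod bipolar-, rod-, cone- and Müller glia-like nuclei it did not, and its level was lowest in rod bipolar-like nuclei. It measured 1182.9 ± 168.4 CPM in starburst amacrine-like nuclei, which was the highest class, then 1149.5 ± 122.5 CPM in GABAergic amacrine-like and 1007.8 ± 60.4 CPM in OFF cone bipolar-like nuclei (SD, n = 6, 6 and 5 libraries). In rod bipolar-like nuclei it had 55.2, 101.6 and 218.3 CPM in the 3 libraries at 18mo and 78.4, 88.8 and 16.4 CPM in those at 3mo, from 80 UMIs. The next class up, cone-like nuclei, averaged 116.0 ± 115.7 CPM. ON cone bipolar-like nuclei, the nearest relatives of rod bipolar cells, had 815.8 and 830.5 CPM in 2 libraries at 18mo and 800.6, 918.8 and 1044.7 CPM at 3mo. Every library with both classes had less Gria2 in rod bipolar-like nuclei, by -3.90 ± 1.17 on the log2(CPM + 1) scale (SD, n = 5). The exact sign-flip permutation test, two-sided, gave p = 0.0625, the smallest that 5 libraries allow, and 0.1125 after adjustment over 45 pairs of related classes. These pairs were chosen after the data had been seen.

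Gria1 had its highest mean in rod bipolar-like nuclei, where Gria2 had its lowest. It had 528.5, 348.7 and 327.4 CPM at 18mo and 418.3, 306.8 and 163.7 CPM at 3mo. OFF cone bipolar-like nuclei followed at 317.0 ± 85.6 CPM (n = 5), ON cone bipolar-like at 280.8 ± 113.9 CPM (n = 5) and GABAergic amacrine-like at 269.4 ± 75.1 CPM (SD, n = 6). Rod bipolar-like nuclei exceeded ON cone bipolar-like nuclei in 5 of 5 libraries, by 0.34 ± 0.11 on the log2(CPM + 1) scale, and OFF cone bipolar-like nuclei in 4 of 5, by 0.10 ± 0.52. The first order held in each library and the second lay within the spread. Rod bipolar-like nuclei also exceeded GABAergic amacrine-like nuclei in 5 of 6 libraries, by 0.33 ± 0.38, and glycinergic amacrine-like nuclei in 4 of 6, by 0.46 ± 0.62. The top rank was thus not the same in every library. Gria1 stood above background in 5 classes, the 3 bipolar-like ones and the GABAergic and glycinergic amacrine-like ones. Starburst amacrine-like nuclei had less than GABAergic amacrine-like nuclei in 6 of 6 libraries, at 58.5 ± 37.5 against 269.4 ± 75.1 CPM.

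Gria3 and Gria4 were highest in the amacrine- and horizontal-like classes and lower in all bipolar-like nuclei. Gria4 was highest in glycinergic amacrine-like nuclei, with 1392.8, 1880.2 and 1688.5 CPM at 18mo and 1541.8, 1974.1 and 1745.3 CPM at 3mo. GABAergic amacrine-like (1591.8 ± 210.9 CPM), starburst amacrine-like (1571.6 ± 191.7 CPM) and horizontal-like nuclei (1338.7 ± 200.8 CPM) came close behind. Ganglion-like nuclei held 782.5 ± 129.9 CPM, and rod bipolar-like nuclei 60.4 ± 66.2 CPM (SD, n = 6). Gria3, an X-linked gene, had 633.6, 771.7 and 715.1 CPM at 18mo and 677.6, 689.7 and 726.8 CPM at 3mo in glycinergic amacrine-like nuclei. It was 24.8 ± 12.4 CPM in OFF and 38.0 ± 27.7 CPM in ON cone bipolar-like nuclei (n = 5), and 22.2 ± 31.8 CPM in rod bipolar-like nuclei, where 3 of 6 libraries had no UMI of it. Both genes stood above background in the same 5 classes, the horizontal-, ganglion- and 3 amacrine-like ones.

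Per 100 kb of gene span, Gria2 made up the largest share of the summed AMPA subunit level in every class except rod bipolar-like nuclei. This ranking depends on the scaling, as Gria2 is the shortest gene. In CPM, Gria4 was above Gria2 in glycinergic (1703.8 against 847.6), GABAergic (1591.8 against 1149.5) and starburst amacrine-like nuclei (1571.6 against 1182.9). The same held in horizontal- (1338.7 against 677.2) and Müller glia-like nuclei (619.6 against 435.2). In rod bipolar-like nuclei Gria1 took 56.4% ± 16.7 per 100 kb and Gria2 33.1% ± 12.4 (SD, n = 6 libraries). The order held in 5 of 6 libraries, and in 18mo replicate 3 Gria2 took 49.6% and Gria1 28.3%. All 31 rod bipolar-like nuclei of that library lay in the cluster led by Ss18l2 and Pcp2. This cluster had 168.5 CPM of Gria2 and 204.9 CPM of Gria1, against 48.9 and 444.8 CPM in that led by Spag16 and Cep112. These CPM are not scaled by gene span, which is 121.4 kb for Gria2 and 318.9 kb for Gria1. Per 100 kb, Gria2 therefore exceeded Gria1 in the Ss18l2 and Pcp2 cluster, and Gria1 exceeded Gria2 in the other. The Ss18l2 and Pcp2 cluster held 226 of the 546 rod bipolar-like nuclei, from all 6 libraries. Its score for markers of another class was 1.57, close to the limit of 1.6 for leaving a cluster unnamed. In rod bipolar-like nuclei Gria1 was the only AMPA subunit above background. In rod-, cone- and Müller glia-like nuclei none was, so the shares in these 3 classes cannot be told apart from those of background RNA. Gria2 took 81.9% ± 5.8 in ON and from 72.2% to 84.5% in OFF cone bipolar-like nuclei (n = 5 each), and 47.2% to 72.6% in the other 8 classes. Gria4 took 30.4% ± 1.59 in glycinergic amacrine-like and 31.2% ± 2.92 in horizontal-like nuclei. Gria1 was least in horizontal-like nuclei at 1.16% ± 1.15 and in starburst amacrine-like nuclei at 1.17% ± 0.746.

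**Figure D2:**
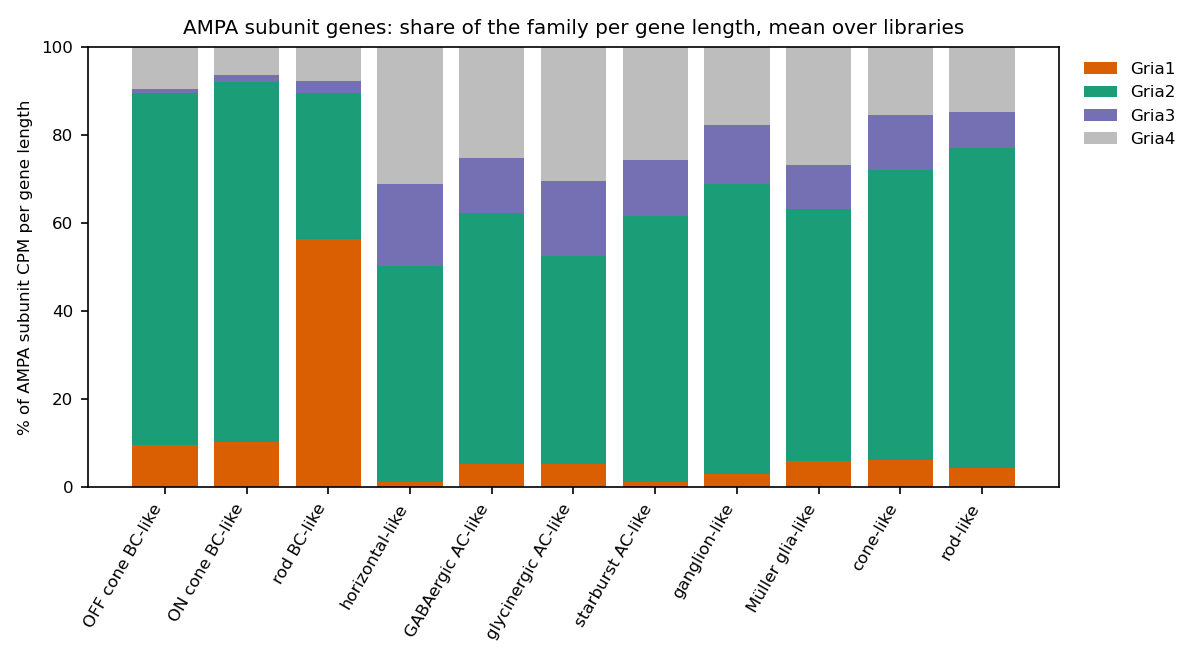
Share of each AMPA subunit gene in the summed CPM per gene length, as the mean over 5 or 6 libraries, by class. The Gria1 part reaches 56.4% in rod bipolar-like nuclei and lies between 1.16% and 10.1% in the other 10 classes. No AMPA subunit stood above background in rod-, cone- or Müller glia-like nuclei.

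Among the kainate subunits, Grik1 was the most class-restricted. OFF cone bipolar-like nuclei held 5243.7 and 3874.2 CPM in the 2 libraries at 18mo and 5582.4, 4095.0 and 3126.0 CPM in the 3 at 3mo, from 4200 UMIs. The next class, Müller glia-like nuclei, averaged 330.9 ± 224.0 CPM, and ON cone bipolar-like nuclei 202.9 ± 96.2 CPM (SD, n = 6 and 5). OFF exceeded ON cone bipolar-like nuclei in 5 of 5 libraries, by 4.52 ± 0.63 on the log2(CPM + 1) scale, with an exact two-sided p of 0.0625 and 0.1125 after adjustment. The lowest OFF library, at 3126.0 CPM, exceeded the highest library of any other class, at 680.1 CPM, and OFF cone bipolar-like nuclei were the only class above background, which was 194.8 ± 112.2 CPM. The same OFF nuclei held Gria2 at 1007.8 ± 60.4 CPM, between the 847.6 ± 79.6 CPM of glycinergic and the 1182.9 ± 168.4 CPM of starburst amacrine-like nuclei.

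Grik2 had another distribution, highest in glycinergic amacrine-like nuclei with 1322.8, 1485.1 and 951.1 CPM at 18mo and 1537.1, 1651.3 and 1497.5 CPM at 3mo. GABAergic amacrine-like nuclei followed at 953.9 ± 68.1 CPM, lower in 6 of 6 libraries, by 0.54 ± 0.28 on the log2(CPM + 1) scale (SD, n = 6). These were the 2 classes above background, which was 314.7 ± 198.5 CPM. Horizontal-like nuclei held 563.5 ± 67.9 CPM, starburst amacrine-like 433.3 ± 137.2 CPM and rod bipolar-like 48.5 ± 70.7 CPM.

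Grik3 and Grik4 were scarce, and they were read against the low background given above. Grik3 was highest in ganglion-like nuclei, at 63.3, 32.7 and 27.0 CPM at 18mo and 53.2, 19.7 and 20.2 CPM at 3mo, where 957 UMIs were counted. Grik3 had 1 UMI in all rod bipolar-like nuclei and 1 in all OFF cone bipolar-like nuclei. Grik4, a subunit that needs another kainate subunit to form a channel, was highest in GABAergic amacrine-like nuclei at 97.5, 30.8 and 42.0 CPM at 18mo and 56.5, 38.0 and 39.6 CPM at 3mo. Horizontal-like (45.7 ± 24.1 CPM) and ganglion-like nuclei (41.3 ± 21.6 CPM) lay within its spread. For both genes, replicate 1 of each age exceeded the other 4 libraries in 6 of 11 classes, which are the libraries of Cell Ranger 7.1.0. That pattern also held for Gria1 in 5 and Grid1 in 4 classes, and the reverse for Gria2 in 5 and Gria4 in 6. The part of the release in it cannot be told apart from that of the replicate number. The share of all genes with such a pattern was not determined, so it is not read as a trait of these subunits.

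Grid1 was highest in the 3 bipolar-like classes. Rod bipolar-like nuclei had 946.6, 637.4 and 654.8 CPM at 18mo and 1063.2, 807.3 and 491.2 CPM at 3mo, and ON and OFF cone bipolar-like nuclei averaged 648.1 ± 287.2 and 551.3 ± 204.2 CPM (SD, n = 5). Rod bipolar-like nuclei exceeded both in 5 of 5 libraries, by 0.36 ± 0.36 and 0.55 ± 0.27 on the log2(CPM + 1) scale. This order depended on how nuclei were classed: with a marker gate per nucleus rod bipolar-like nuclei had 424.0 CPM, and ON cone bipolar-like nuclei were highest at 432.4 CPM. Ganglion-like nuclei followed at 317.9 ± 52.9 CPM, and these 4 classes stood above background. Per 100 kb, the rod bipolar level of Grid1 was 100.5 CPM, near the 109.4 CPM of Gria1.

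The order of the 11 classes gave 90 neighbouring pairs over the 9 genes. No pair passed an exact two-sided sign-flip permutation test after Benjamini-Hochberg adjustment, the smallest adjusted p being 0.1654. In 24 pairs all libraries went the same way, and each of these reached the smallest unadjusted p that its number of libraries allows, 0.0312 in 17 pairs with 6 libraries and 0.0625 in 7 pairs with 5. Rod-like and cone-like nuclei stood between rank 7 and rank 11 of the 11 classes for every gene, with mean levels at or under 159.4 CPM.

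Within classes the levels varied among clusters. In OFF cone bipolar-like nuclei, Grik1 was 9266.5 CPM (95% Poisson interval 8789.7 to 9762.4, counting error only) in the cluster led by Slc16a7 and Adamtsl1, 7396.7 CPM in that led by Lama2 and Kcnh8 and 5867.1 CPM in that led by Erbb4 and Angpt1. The cluster led by Neto1 and Nxph1 had 1959.6 CPM, and the remaining 3 had 557.5, 378.5 and 20.5 CPM, the lowest from 1 UMI in 22 nuclei. The first of these clusters had libraries of both ages with at least 20 nuclei, at 10488.8 CPM in 18mo replicate 2 and 10069.8 CPM in 3mo replicate 1. These cluster values are a description, with the nuclei of all libraries summed. The OFF names needed at least 3 OFF markers and a mean log2 score of the ON markers under 2.9. In the cluster with 20.5 CPM the ON score was 2.45 and the OFF score 0.23, so its name is the least secure. Of the OFF cone bipolar-like clusters, only that led by Wls and Brinp3 scored higher for OFF (1.73) than for ON markers (1.28). That cluster, with 27 nuclei, was among the remaining 3. Its Grik1 was therefore at most 557.5 CPM, under the class level of every library. The 3 clusters highest in Grik1 had ON scores of 2.14, 2.52 and 2.72 and OFF scores of 1.13, 1.24 and 2.22, in the order above.

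Gria1 was low in most ganglion-like clusters but not in that led by Chsy3 and Foxp2. This cluster, with 333 nuclei, held 1586.6, 1235.3 and 636.3 CPM at 18mo and 1528.2, 1046.7 and 983.8 CPM at 3mo, and 1229.2 CPM in sum, while the other 12 ganglion-like clusters lay between 4.78 and 159.3 CPM. The same cluster had the highest Grik3 of its class, 212.7 CPM. Among glycinergic amacrine-like nuclei, the cluster led by Slc17a8, the vesicular glutamate transporter VGLUT3, held 741.6 CPM of Gria1 against 199.0 and 101.7 CPM in the other 2. Grik2 was 2376.5 CPM in the cluster led by Lgr5 and Esr1, in all 6 libraries between 2058.2 and 3083.1 CPM, and 1063.5 and 934.8 CPM in the other 2. Among GABAergic amacrine-like clusters, Grik2 was highest, at 1931.8 CPM, in that led by Vip, which encodes a neuropeptide, and lowest, at 395.8 CPM, in that led by Maf and Adarb2. Gria3 differed from 159.5 CPM in the Cartpt and Sst cluster to 1188.0 CPM in the Cyp2j8 and Hs6st3 cluster.

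**Figure D3:**
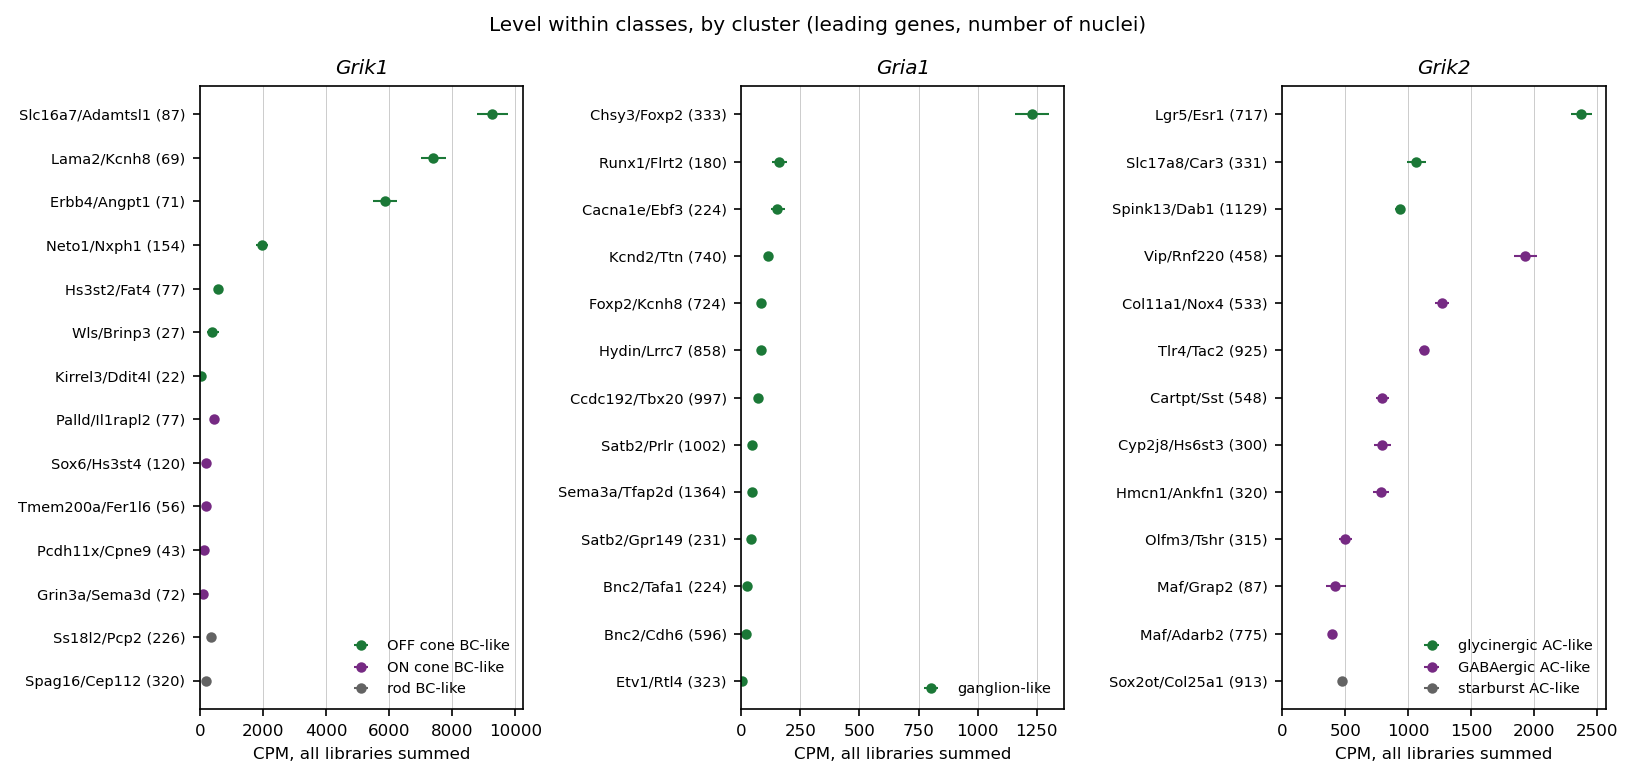
Grik1 in bipolar-like, Gria1 in ganglion-like and Grik2 in amacrine-like clusters, as CPM with the nuclei of all libraries summed and 95% Poisson intervals. Clusters are named by their leading genes, with the number of nuclei in brackets. Grik1 reached 5867.1, 7396.7 and 9266.5 CPM in 3 OFF cone bipolar-like clusters, and Gria1 1229.2 CPM in 1 ganglion-like cluster.

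Partner genes of the receptors were taken from lists of 44 genes (NMDA and other receptor subunits, auxiliary subunits, scaffolds and ligands, editing enzymes). Neto1, an auxiliary subunit of kainate receptors, was 485.9 ± 213.2 CPM in OFF cone bipolar-like nuclei, the class of Grik1, and 47.5 CPM on average in the next class (SD, n = 5). Within that class the cluster led by Neto1 was not the highest for Grik1, with 1959.6 CPM against 9266.5 CPM in the highest. Neto2 was highest in GABAergic amacrine-like nuclei, at 81.9 ± 13.4 CPM. Of the AMPA auxiliary subunits, Shisa6 was highest in glycinergic amacrine-like nuclei at 355.8 ± 55.9 CPM, Cacng3 in horizontal-like nuclei at 277.2 ± 76.9 CPM and Cacng2, stargazin, in starburst amacrine-like nuclei at 233.2 ± 95.2 CPM. The NMDA subunit Grin2a was highest in ganglion-like (504.3 ± 88.7 CPM), Grin2b in starburst amacrine-like (416.2 ± 95.7 CPM) and Grin3a in ON cone bipolar-like nuclei (158.1 ± 54.1 CPM). The scaffold Dlg2 was highest in rod bipolar-like nuclei at 8067.8 ± 1439.4 CPM, and Adarb1, the enzyme that edits Gria2, in GABAergic amacrine-like nuclei at 312.7 ± 64.3 CPM.

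Genes whose pattern over the 11 classes was most like that of each member were taken by Pearson's r of log2(mean CPM + 1) among 6332 genes. The points share libraries and depth, so r is a description. Gria4 was closest to Dlgap1 (r = 0.987), and had Grik2 (r = 0.966) among its 3 closest genes. Gria3 was closest to Elavl3 (0.972) and had the AMPA auxiliary subunit Cacng3 (0.961) among its 3 closest. Grid1 was closest to Nyap2 (0.987), Gria1 to Gfod1 (0.986), Grik3 to Tafa1 (0.983), Grik2 to Fut9 (0.978) and Gria2 to Cdr1os (0.967). Grik1 was closest to Pde1a (0.946) and Grik4 to Pakap (0.915).

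The ages were compared on UMIs summed per library in 9 classes with at least 20 nuclei in all 6 libraries. Of 67 tests of a member in a class, 0 passed edgeR's quasi-likelihood test with Benjamini-Hochberg adjustment, the smallest adjusted p being 0.644. The share called among all genes tested was 0.0% in each class. The test was tried on counts simulated for some of these classes, with a common spread between libraries for all genes of a class. It recovered 2-fold changes in 0% (rod-like) to 12% (ganglion-like) of cases. An absence of calls therefore does not show an absence of 2-fold differences. At an unadjusted p under 0.05, 6 of the 67 tests passed (9.0%), against 2.88% of all gene tests in these classes, and DESeq2 called 0 members. The main test had no term for replicate or release. With the replicate number as a block 2 members passed, both in rod-like nuclei, as did 8.87% of all genes there. Other settings are given below. In the main test, log2 differences (18mo over 3mo) lay between -0.86 and 1.99, with 48 above and 19 below 0. Of 242 tests of the 44 partner genes, 0 passed and 14 had an unadjusted p under 0.05. Groups did not overlap in 11 of the 67. These were Grik1, Gria1 and Grid1 in Müller glia-like nuclei (where 7.97% of all genes tested did not overlap), Gria1 and Gria3 in horizontal-like (11.1%), Gria3 and Gria4 in cone-like (7.0%), Gria2 in rod-like (11.6%), Gria3 in GABAergic amacrine-like (7.38%), Grik2 in glycinergic amacrine-like (7.79%) and Grik2 in starburst amacrine-like nuclei (8.24%). No member was without overlap in rod bipolar-like (6.63%) or ganglion-like nuclei (7.1%).

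**Figure D4:**
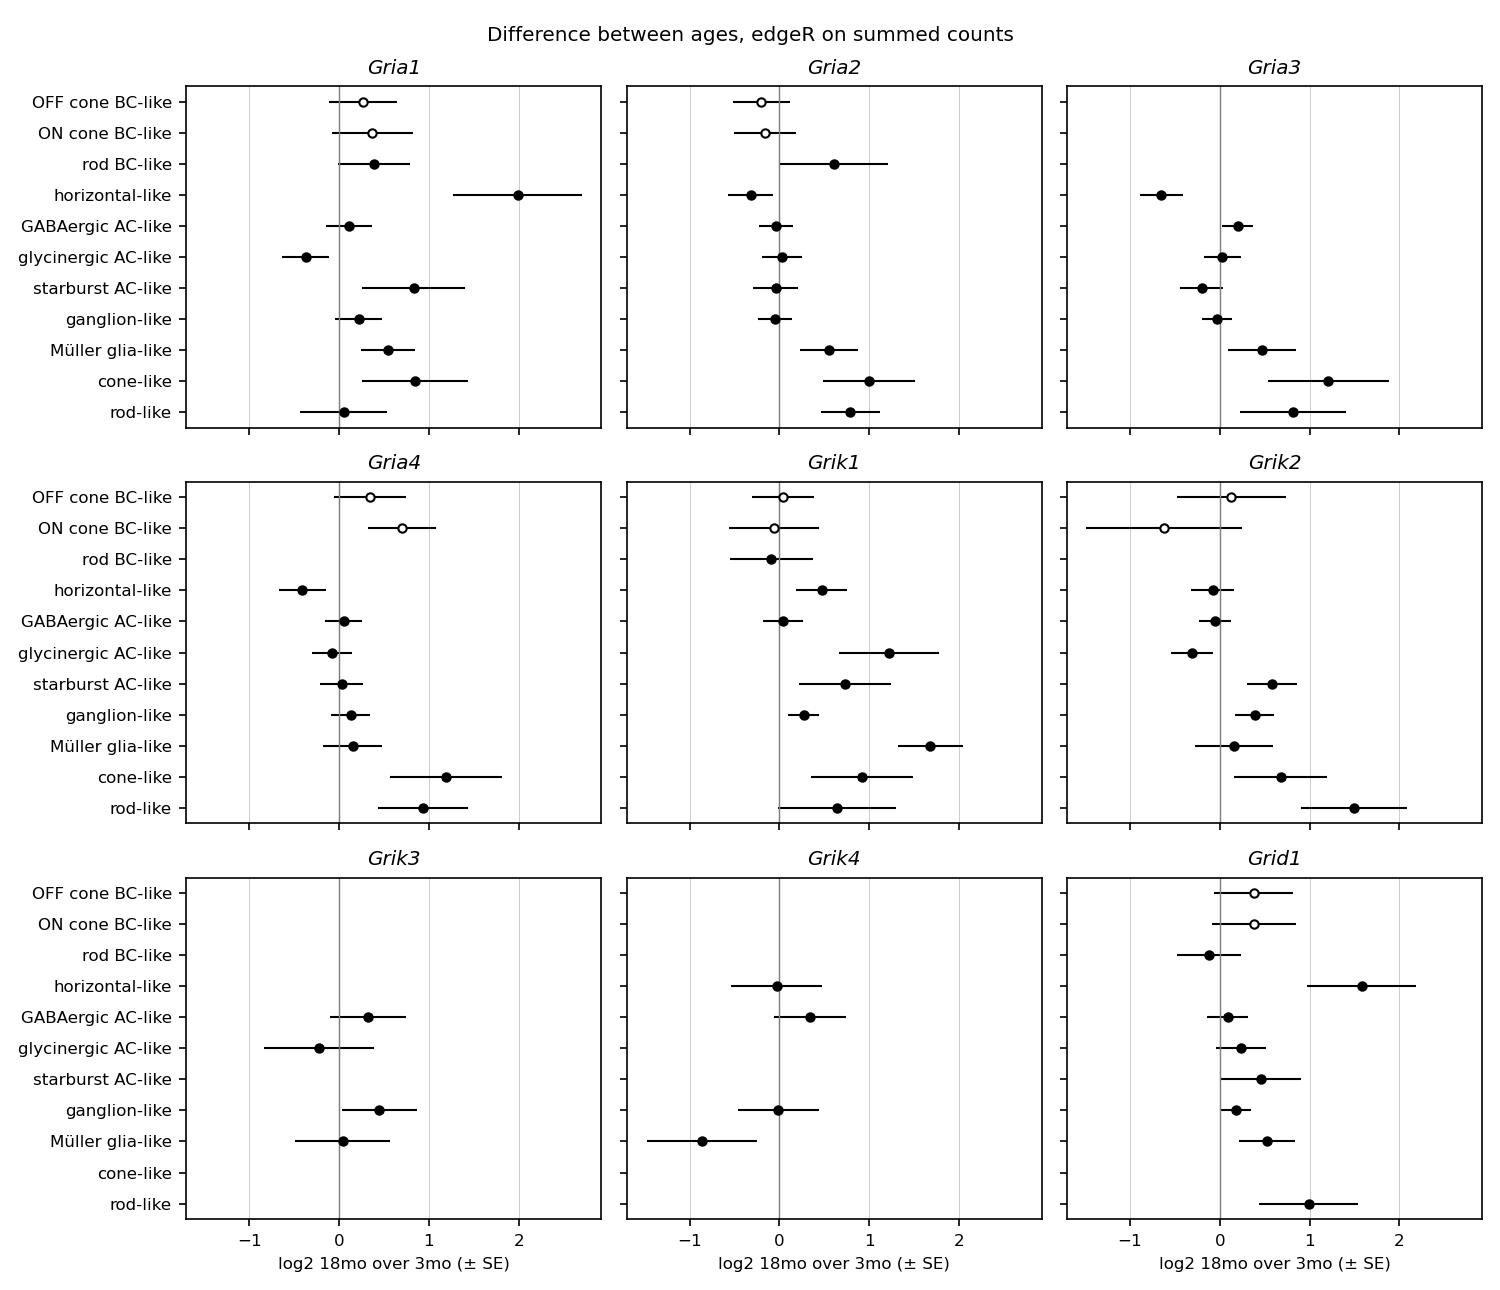
Log2 difference between 18mo and 3mo (edgeR, ± SE) of each member by class, open points for the ON and OFF cone bipolar-like classes tested on 2 libraries at 18mo and 3 at 3mo. Grik1 in Müller glia-like nuclei (1.68) and Gria1 in horizontal-like nuclei (1.99) stand farthest right. No point passed the adjusted test.

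Grik1 in OFF cone bipolar-like nuclei averaged 4558.9 ± 968.4 CPM at 18mo (n = 2) and 4267.8 ± 1237.3 CPM at 3mo (n = 3), a log2 difference of 0.04 with an SE of 0.35 (edgeR, adjusted p = 1.0). The groups overlapped. The 18mo replicate 3 was dropped from this test, which was added after the data had been seen, for its 8 nuclei.

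In Müller glia-like nuclei, Grik1 had 359.3, 491.0 and 680.1 CPM at 18mo, and 210.8, 101.9 and 142.2 CPM at 3mo. The ages did not overlap, as for 5.06% of all genes of that class in the same direction, and the log2 difference was 1.68 with an SE of 0.36 (edgeR, unadjusted p = 0.000743, adjusted p = 1.0). The libraries were spread over 2 clusters in different parts. The cluster led by Col9a1 and Abca8a held 718 nuclei at 18mo and 130 at 3mo, and had 521.1, 677.3 and 683.4 CPM of Grik1 at 18mo against 391.2 and 230.6 CPM in 2 libraries at 3mo. The cluster led by Col9a1 and Flt1 held 531 nuclei at 18mo and 525 at 3mo, with 198.5, 39.6 and 606.9 CPM at 18mo against 132.6, 28.0 and 0.0 CPM at 3mo. Its nuclei by library were 159, 351 and 21 at 18mo and 440, 45 and 40 at 3mo. The summed level of the 8 bipolar markers in Müller glia-like nuclei was 413.6 to 958.3 CPM at 18mo and 364.0 to 845.9 CPM at 3mo, none of them at 0. That of the 11 rod markers was 6766.7 to 9221.5 CPM at 18mo and 13149.5 to 14359.0 CPM at 3mo, without overlap and with none at 0. The part of other classes' RNA in the difference was not tested. With Cell Ranger release as a term the difference was 1.58 with an adjusted p of 0.0452, as for 0.0421% of all genes. Without a filter on low counts it was 1.76, and Grik1 was the only gene called of 21524 (0.00465%). With release 7.2.0 only it was 2.20, and Grik1 was the only gene called of 6685 (0.015%). With nuclei classed by a marker gate it was 0.56.

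In rod-like nuclei Gria2 measured 173.8, 199.0 and 267.2 CPM at 18mo, and 140.3, 64.4 and 111.8 CPM at 3mo. The ages did not overlap, as for 8.44% of all genes of that class in the same direction. The log2 difference was 0.79 with an SE of 0.33 (edgeR, adjusted p = 0.644). Grik2 measured 28.5, 72.0 and 180.2 CPM at 18mo, and 36.1, 19.2 and 22.1 CPM at 3mo, and these overlapped, with a log2 difference of 1.5 and an SE of 0.59 (edgeR, adjusted p = 0.644). With the replicate number as a block, both passed, at 0.83 (adjusted p = 0.039) and 1.41 (adjusted p = 0.0362), as did 8.87% of all genes in rod-like nuclei. With release as a term 11.0% of all genes were called, and with release 7.2.0 only 16.8%, Gria2 and Grik2 among them. Without 18mo replicate 3 the edgeR differences with age alone were 0.65 for Gria2 and 0.84 for Grik2, and with nuclei classed by a marker gate they were 0.9 and 0.73. Both genes lay below background in every library. The libraries were spread over the 8 rod-like clusters in different parts, within an age as well as between ages. The cluster led by Hist1h2bc and Rps24, which had the highest summed level of both genes (216.6 CPM of Gria2 and 99.9 CPM of Grik2), held 1825 nuclei at 18mo and 290 at 3mo. Of the 1825 nuclei, 1741 came from 18mo replicate 2. The cluster led by Vtn and Cnga1, which had the lowest (29.0 and 5.45 CPM), held 2 nuclei at 18mo and 509 at 3mo. In that cluster 3mo replicates 1, 2 and 3 had 0, 376 and 133 nuclei. The cluster led by Zan and Slc17a4 came mostly from replicate 1, with 990 nuclei at 18mo and 351 at 3mo among 1393. Within the Hist1h2bc and Rps24 cluster, Gria2 had 381.6, 226.9 and 185.5 CPM at 18mo and 323.4, 110.8 and 88.0 CPM at 3mo, and the ages overlapped. The part of the clusters in the differences was not tested. In the same nuclei the summed level of the 11 rod markers was 24705.3 to 32228.6 CPM at 18mo and 39590.6 to 61644.6 CPM at 3mo, that of the 13 amacrine markers 453.7 to 820.1 CPM at 18mo and 357.3 to 557.3 CPM at 3mo, with none at 0 in either list, and their part in the differences was not tested.

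In horizontal-like nuclei 3 members had an unadjusted p under 0.05. Gria3 had 546.5, 469.7 and 458.5 CPM at 18mo, and 611.6, 709.5 and 687.6 CPM at 3mo, without overlap, as for 1.89% of all genes of that class in the same direction, and a log2 difference of -0.65 with an SE of 0.24 (edgeR, adjusted p = 0.903). Gria1 had 40.8, 36.9 and 120.3 CPM at 18mo, and 35.0, 6.12 and 3.72 CPM at 3mo, a log2 difference of 1.99 with an SE of 0.72 (edgeR, adjusted p = 0.886), without overlap, as for 9.23% in that direction. Gria1 and Grid1 passed without a filter on low counts, as did 0.835% of all genes, and with release 7.2.0 only, as did 2.64%. Grid1 had 59.7, 76.2 and 139.1 CPM at 18mo, and 62.4, 8.15 and 13.0 CPM at 3mo, and overlapped, with a log2 difference of 1.58 (edgeR, adjusted p = 0.917). Without the nuclei of the highest doublet scores it was 3.12 (edgeR, adjusted p = 0.303). Of these 3 genes, Gria3 alone stood above background in this class. Without 18mo replicate 3 the log2 differences were -0.56, 1.33 and 1.24 in that order, and without 3mo replicate 1 they were -0.76, 3.35 and 2.78. The summed bipolar markers were 191.6 to 629.5 CPM at 18mo and 140.7 to 212.2 CPM at 3mo, with none of the 8 at 0, and their part was not tested.

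**Figure D5:**
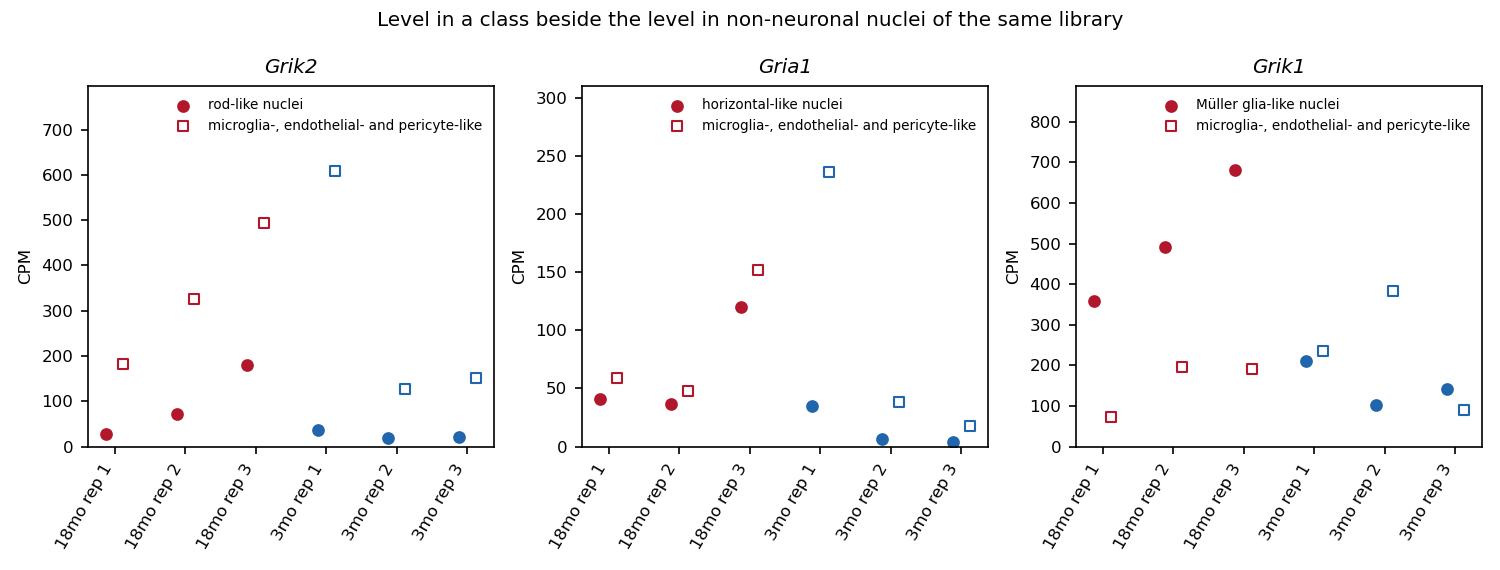
Grik2 in rod-like, Gria1 in horizontal-like and Grik1 in Müller glia-like nuclei (filled circles, CPM), each beside the level in microglia-, endothelial- and pericyte-like nuclei of the same library (open squares), 18mo in red at the left and 3mo in blue at the right. Grik2 in rod-like nuclei lay below the squares in all 6 libraries, and Grik1 in Müller glia-like nuclei lay above them in all 3 libraries at 18mo and in 1 at 3mo.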

How the data were processed

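The deposited counts are raw UMI counts per gene and barcode, produced with Cell Ranger 7.1.0 (replicate 1 of both ages) or 7.2.0, per the file headers, on mm10, per the submitters' processing notes, which also name Seurat. Nuclei with at least 300 genes and at most 5% mitochondrial UMIs were kept. All libraries were clustered together without integration in scanpy 1.11.5 (Python 3.11.15; 2000 variable genes, less the members and partner genes, 30 components, 15 neighbours, Leiden resolution 2.0 with leidenalg 0.10.2). Clusters were named from fixed markers, nuclei with markers of 2 classes (1688) were left out, and doublets were otherwise left in, with a simulated-doublet score as an alternative. Counts of a class were summed per library and expressed as CPM, computed here from the deposited counts. Ages were compared with edgeR 4.0.16 (TMM, filterByExpr, quasi-likelihood test, adjusted p at or below 0.05), with DESeq2 1.42.0 as an alternative (R 4.3.3). The fits were tested on simulated counts, with 100 genes changed 2-fold and 100 changed 4-fold per class. All genes of a class shared a common dispersion (spread between libraries), and no replicate or release effect was drawn. Recovery in the real counts can therefore differ. The 2-fold changes were recovered in 0% of cases in rod-like, 12% in ganglion-like and 6% in glycinergic amacrine-like nuclei. In rod bipolar-like nuclei it was 11% and in Müller glia-like nuclei 7%. The 4-fold changes were recovered in 30%, 92%, 86%, 74% and 61% in the same order of classes.

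Intervals cover counting error only. Whether the 3 libraries of an age came from different animals is not given in the labels; p-values then reflect library-to-library spread, which can be technical. The labels' replicate numbers were checked by the correlation of same-numbered libraries' deviations from the age means. It was above 0.1 for every pair in rod-, rod bipolar-, GABAergic and starburst amacrine-, ganglion- and Müller glia-like nuclei. For the third pair it was between 0.077 and 0.093 in cone-, horizontal- and glycinergic amacrine-like nuclei. In every class the first pair had the highest correlation, from 0.472 (horizontal-like) to 0.635 (GABAergic amacrine-like). The second pair ran from 0.101 (starburst amacrine-like) to 0.522 (rod-like), and the third reached at most 0.186 (ganglion-like). The first pair is also the pair counted with the earlier Cell Ranger release. The main age test had no term for replicate or release, and the cause of the correlation was not tested. All 9 members were described in every class. Partner genes were named by their class of highest mean, and not all of them are reported here. The like genes are the 3 with the highest r among properly named genes of at least 50 CPM in a class. The members and lists were chosen with earlier results of these data known.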

Additional observations from a re-analysis of the deposited data

Results flagged for a closer look

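Of all UMIs of the 9 members, 40.5% lay in nuclei without a class or with markers of 2 classes, 48.0% at 18mo and 28.0% at 3mo. These nuclei enter none of the levels above. They were marked because they hold a subunit signal outside the classes that were compared, and their classes were not tested further.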

How the results depend on the processing

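The count of members called between ages was 0 in the main test of every class and moved in 3 classes. In rod-like nuclei it was 2 with the replicate block, 2 with Cell Ranger release as a term and 5 with only the libraries of release 7.2.0. In horizontal-like nuclei it was 2 without a filter on low counts and 2 with release 7.2.0 only, and in Müller glia-like nuclei it was 1 under each of no filter, the release term and release 7.2.0 only. The replicate block changed no other call. The count of genes called over the whole table moved with the same settings, to 11.0% of genes in rod-like nuclei under the release term and 16.8% with release 7.2.0 only. With only the 2 libraries of release 7.1.0, which allow no test, the log2 difference reversed for Grik2 in rod-like nuclei (-0.37) and Grid1 in horizontal-like nuclei (-0.11). Grik1 in OFF cone bipolar-like nuclei, 0.04 in the main test, was -0.12 with the block, -0.02 with the release term, -0.14 with release 7.1.0 only and -0.03 with a mitochondrial limit of 10%, and ran from -0.15 to 0.33 when single libraries were left out. The cause was not tested.

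With nuclei classed by a marker gate, Grik2 in its highest class was 1014.5 CPM and Grid1 424.0 CPM, and the highest class of Gria4 became GABAergic amacrine-like (1661.1 CPM) and that of Grid1 ON cone bipolar-like (432.4 CPM). For Gria2 and Grik1 the gate left fewer than 4 libraries with 20 nuclei in their highest class, so it gave no value. Gria2 was highest in GABAergic amacrine-like nuclei (1155.8 CPM) with a mitochondrial limit of 2%, and Grik4 in horizontal-like nuclei (47.3 CPM) with every nucleus weighted equally. The age tests of cone-like nuclei with the 2% limit, of starburst amacrine-like nuclei with the 2% limit and the gate, and of OFF cone bipolar-like nuclei with the gate were not run, for too few nuclei. Depth limits Grik3 and Grik4 most.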
